A study of Homo sapiens with 14 samples.

Results

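Poly(A) RNA of the K562 clone K18, which is TET2-/- and received DMSO, was compared with that of the K562 clone K01 treated with 100 µM ascorbate. The 4 libraries, 2 per group, were picked by clone and treatment labels as the ends of the range of TET activity that the design implies without an inhibitor. They are 4 of the 14 libraries of the series. K562 is an erythroleukaemia line derived from chronic myeloid leukaemia. The design text calls the TET2+/+ and TET2-/- cells isogenic, and K01 is the clone whose labels carry no disruption. RNA was enriched with oligo(dT). Treatments lasted 24 h. The 2 libraries of K01 in DMSO were set beside both ends, because the comparison of K18 with ascorbate-treated K01 changes the clone, the TET2 genotype and ascorbate together, and these cannot be told apart in it. Each genotype was 1 clone. The labels number the replicates without naming separate cultures, so every p-value measures the spread between libraries, which may be technical. TET activity and cytosine modification were not measured in these files.

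TET1, TET2 and TET3 are dioxygenases that use iron, oxygen and 2-oxoglutarate to oxidise methylcytosine, the first step of active DNA demethylation. Ascorbate helps to keep the iron of this enzyme family reduced and can raise TET activity in cultured cells, and it is also a cofactor or a reductant for other dioxygenases and for peroxide chemistry. TET2 is often mutated in myeloid malignancies, where its loss is tied to increased methylation at enhancers and promoters. CpG-rich promoters of germline genes are a textbook example of genes that DNA methylation keeps silent in somatic cells.

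Levels are given in FPKM, fragments scaled to gene length and to the library's mapped fragments, and differences on the log2(FPKM + 1) scale as K18 minus ascorbate-treated K01, with the standard error (SE) from limma. A gene was called when its p-value, adjusted by Benjamini-Hochberg over all 12535 tested genes, was below 0.05. The added 1 understates the difference of genes near an FPKM of 1. Estimated depth, in units of 1e6 reads, was 7.67 and 8.65 in K18, 7.07 and 6.64 with ascorbate and 9.07 and 6.95 in K01 DMSO. Pearson correlations between replicates were 0.976 to 0.987 over the 5 K562 groups. More genes were above 0 in K18 (15934 and 16130) than with ascorbate (14776 and 14755) or in K01 DMSO (15495 and 15108), and the part of depth in this was not tested.

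All 4 libraries held the erythroid markers of K562. GATA1, a master regulator of red cell genes, stood at 169 and 190 FPKM in K18 and 177 and 196 with ascorbate. ALAS2, the erythroid enzyme that starts heme synthesis, stood at 50.8 and 49.5 and at 48.7 and 49.5. The T-cell genes CD2 and LCK, the B-cell gene MS4A1, the endothelial gene CDH5 and the platelet genes PF4 and PPBP were listed at 0 in all 4. Only 3 of 17 lymphoid and 4 of 18 platelet genes listed were at 0 in all 4. Platelet genes summed to 78.4 and 74.6 FPKM in K18 and 165 and 145 with ascorbate. Lymphoid markers summed to 14.6 and 20.5 FPKM in K18 and 38.5 and 27.4 with ascorbate, with CD3D the main member in K18 and CD3D and PTPRC in K01. K18 replicate 2 differed from replicate 1 in neutrophil granule genes, with MPO at 4.20 against 0.529, ELANE at 4.01 against 0.170 and PRTN3 at 5.10 against 0.154 FPKM. The part of this in other results was not tested. Results without that library are given for some genes and lists only, and other counts also change without it.

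TET2 itself, the gene disrupted in K18 by its label, was not lower in the library values of K18. It stood at 3.31 and 2.95 FPKM in K18, 2.12 and 1.16 in K01 with ascorbate and 1.99 and 2.40 in K01 DMSO. The K18 values lay above the others, and the difference from ascorbate-treated K01 did not pass the threshold (log2 0.67, SE 0.22, adjusted p = 0.0748, 95% interval 0.17 to 1.17). It passed in 1 of 4 fits without a library (adjusted p = 0.0472). A total transcript level cannot show whether the coding sequence is disrupted, and the position of the lesion is not given in the sources used here, so this does not check the label. TET1, at 5.88 and 6.19 FPKM in K18 and 6.56 and 6.68 with ascorbate, was not called (log2 -0.12, 95% interval -0.41 to 0.18). TET3 was not called either (log2 0.03, 95% interval -0.31 to 0.37).

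Between K18 and ascorbate-treated K01, 1959 genes were called, 15.6% of those tested. Of these, 879 (7.01%) were higher and 1080 (8.62%) were lower in K18. The counts of every gene list below are to be read beside these shares. A difference of at least 2-fold was reached by 538 called genes (4.29%), 346 higher (2.76%) and 192 lower (1.53%). Library values of the 2 groups did not overlap in 58.9% of tested genes, so that lack of overlap alone marks no gene. The median log2 difference over all tested genes was -0.00. With libraries scaled to an equal sum the split turned to 1182 higher and 642 lower, and small differences shared by many genes therefore depend on the scaling. Leaving out a library gave 903 calls without K18 replicate 1, 795 without K18 replicate 2, 1067 without ascorbate replicate 1 and 1065 without ascorbate replicate 2.

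**Figure D1:**
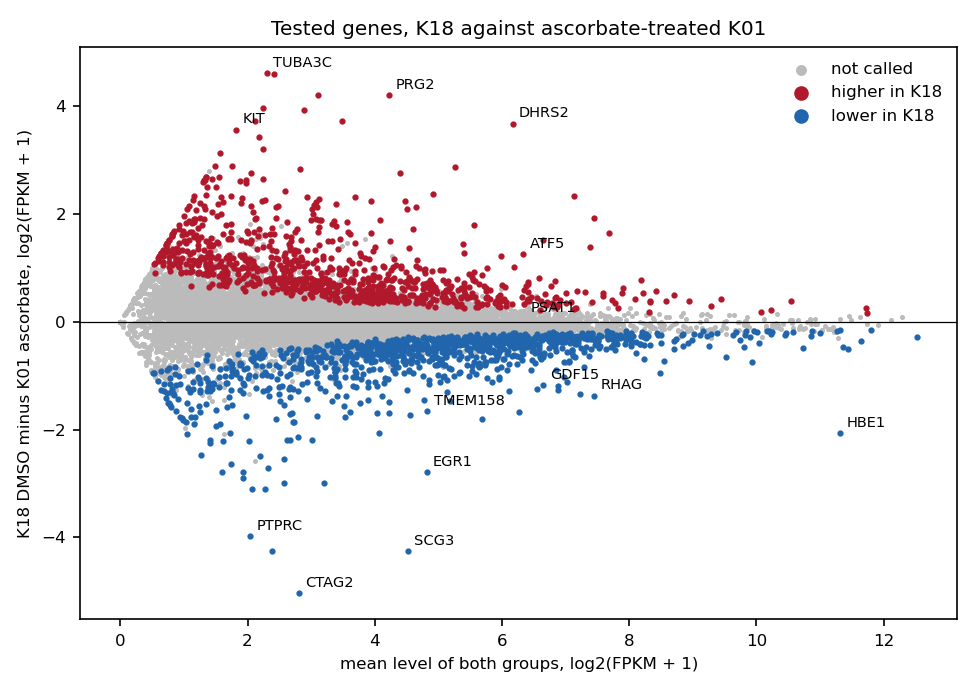
Each point is 1 of the 12535 tested genes, with the mean level of both groups, log2(FPKM + 1), on the horizontal axis and the difference of K18 DMSO minus K01 ascorbate on the vertical axis. Red points are the 879 called higher in K18, blue points the 1080 called lower, and grey points were not called. Some named genes at the top and bottom, such as TUBA3C, KIT, CTAG2 and PTPRC, are near absent in 1 group. DHRS2 and EGR1 are present in both groups at unequal levels. HBE1 stands apart at the high end of the level axis.

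Set beside this, K18 differed from K01 in DMSO in 1886 genes (15.0%), 858 of them higher (6.84%) and 1028 lower (8.20%). Ascorbate differed from DMSO within K01 in 60 genes (0.479%), 21 higher (0.168%) and 39 lower (0.311%). The ascorbate calls depended on the fit. With limma, 0 genes passed when only its 4 libraries were fitted, 7 without variance trend and robust fitting, and 0 to 6 when a library was left out, with 0 without K01 DMSO replicate 1. The unadjusted limma p of ascorbate against DMSO was below 0.05 for 1500 of the 12535 tested genes. Without adjustment, part of such a count is expected even where no gene differs. The 3 comparisons share libraries, so their lists are not independent of each other, and the values of each are given side by side.

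Among the genes with the largest differences, many were near absent in 1 clone, while others, such as DHRS2 and PAGE1, were present in both at unequal levels. TUBA3C, a testis-type alpha-tubulin, stood at 24.1 and 22.9 FPKM in K18 and was listed at 0 in both ascorbate libraries (adjusted p = 4.33e-06). ACTL8, an actin-like gene of testis, stood at 25.0 and 25.7 against 0 and 0.173 FPKM. KIT, the receptor of stem cell factor on blood progenitors and mast cells, stood at 10.1 and 12.4 against 0.0541 and 0 (log2 3.56, SE 0.23, adjusted p = 2.83e-05). In K01 DMSO the levels of KIT were 0.125 and 0.0549, so the gene was near absent in K01 with or without ascorbate.

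DHRS2, a mitochondrial dehydrogenase, reached 254 and 257 FPKM in K18 against 18.1 and 20.2 with ascorbate (log2 3.67, SE 0.12, adjusted p = 2.47e-07). Its K01 DMSO levels were 13.5 and 16.5. ALOX5, the lipoxygenase that starts leukotriene synthesis, stood at 14.7 and 12.9 against 0.369 and 0.394. The remaining genes that the naming rule put among the 12 largest in this direction were SSX3, PRG2, TEX19, PASD1, AURKC, PRSS57 and PAGE1, with log2 differences from 2.86 for PAGE1 to 4.20 for SSX3 and PRG2. All 12 stayed called without each of the 4 libraries in turn. TUBA3C shares near-identical sequence with TUBA3D, and SSX3 with other SSX genes, so the copy behind these levels is uncertain.

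The opposite pattern was led by CTAG2, a cancer-testis antigen, at 0.437 and 0 FPKM in K18 and 31.1 and 47.0 with ascorbate (log2 -5.03, SE 0.28, adjusted p = 1.04e-05). In K01 DMSO it stood at 17.9 and 23.2, and the ascorbate step was not called (log2 0.87, SE 0.28, adjusted p = 0.255). It shares sequence with CTAG1 genes, so its copy is uncertain. PTPRC, the CD45 phosphatase of blood cells, stood at 0.0258 and 0.0452 in K18 and 16.1 and 14.6 with ascorbate (log2 -3.98, SE 0.12, adjusted p = 2.47e-07). SCG3, a secretory granule protein, fell from 100.3 and 98.1 with ascorbate to 4.34 and 4.14 in K18 (log2 -4.26, SE 0.08, adjusted p = 4.76e-09). Also lower in K18 were the transcription factor SOX5 (log2 -3.10), LDOC1 (log2 -3.10), ABRACL (log2 -3.00) and the activation antigen CD69 (log2 -2.99). SH3GL3 (log2 -2.71), the calcium buffer CALB1 (log2 -2.54) and the methyltransferase NNMT (log2 -2.20) were also lower, at 0.845 to 2.03 FPKM in K18 and 11.2 to 13.8 with ascorbate. All of these stayed called without each library in turn.

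**Figure D2:**
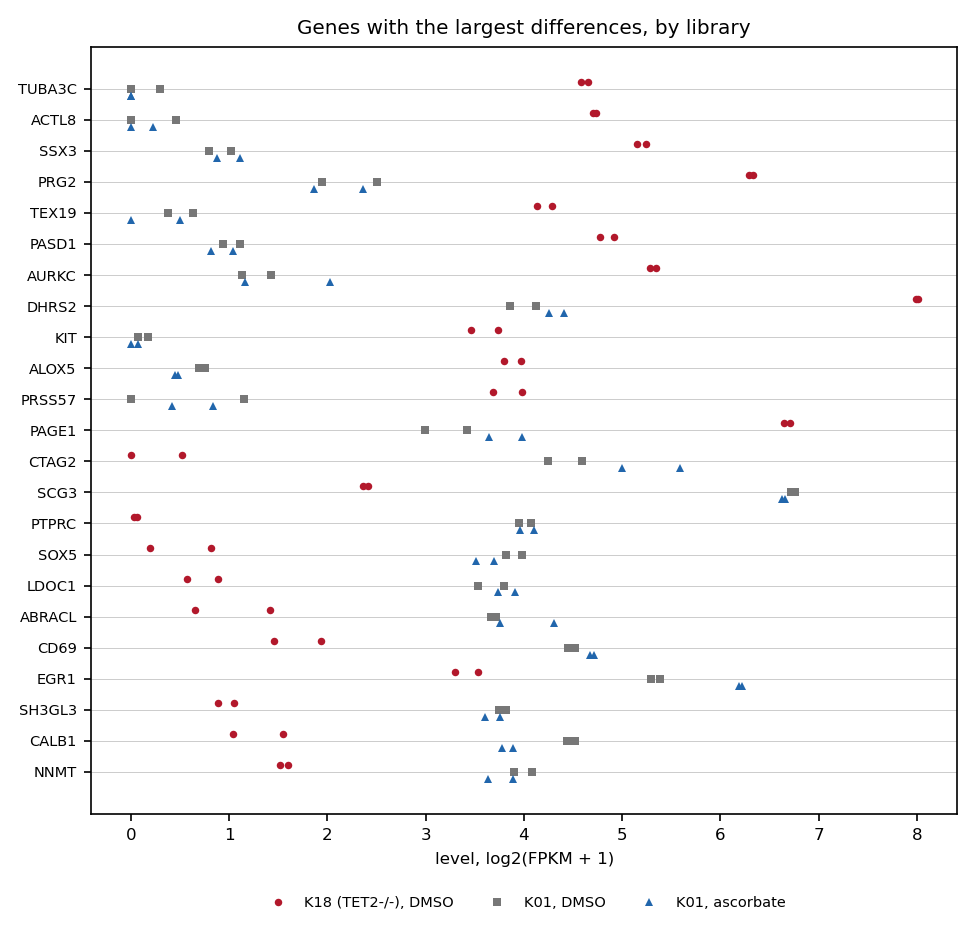
Levels of 23 of the 24 genes with the largest called differences, log2(FPKM + 1), for the 2 libraries of K18 in DMSO (circles), K01 in DMSO (squares) and K01 with ascorbate (triangles). In every row the K18 libraries stand apart from the 4 K01 libraries, and in some rows, such as EGR1, CTAG2, CD69 and ALOX5, the ascorbate libraries lie beyond those in DMSO on the side away from K18.

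Promoters are shown for 3 of these genes because their CpG content spans the range found. Of the 24 genes with the largest differences, 15 had a promoter in the RefSeq table (GRCh38.p14), each 300 bases long and running from 250 bases before the start to 50 after it. These 15 held 0 to 38 CpG, with a median of 18. Capitals mark CpG. The KIT promoter (chr4:54657707-54658006, plus strand) held 38, the PTPRC promoter (chr1:198638790-198639089, plus strand) held 1 and the DHRS2 promoter (chr14:23629865-23630164, plus strand) held 0. DNA methylation was not measured, so these sequences say nothing of its state here.
KIT: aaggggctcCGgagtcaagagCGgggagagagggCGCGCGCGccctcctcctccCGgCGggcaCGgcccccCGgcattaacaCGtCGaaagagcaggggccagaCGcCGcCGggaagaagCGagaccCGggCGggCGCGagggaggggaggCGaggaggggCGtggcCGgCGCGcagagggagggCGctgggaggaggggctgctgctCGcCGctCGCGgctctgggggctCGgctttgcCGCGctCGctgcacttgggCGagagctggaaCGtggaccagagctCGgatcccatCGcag
PTPRC: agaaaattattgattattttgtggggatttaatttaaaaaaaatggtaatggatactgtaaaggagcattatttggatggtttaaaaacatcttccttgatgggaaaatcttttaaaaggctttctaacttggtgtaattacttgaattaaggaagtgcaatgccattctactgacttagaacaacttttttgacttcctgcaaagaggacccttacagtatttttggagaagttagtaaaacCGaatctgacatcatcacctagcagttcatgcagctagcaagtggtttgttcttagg
DHRS2: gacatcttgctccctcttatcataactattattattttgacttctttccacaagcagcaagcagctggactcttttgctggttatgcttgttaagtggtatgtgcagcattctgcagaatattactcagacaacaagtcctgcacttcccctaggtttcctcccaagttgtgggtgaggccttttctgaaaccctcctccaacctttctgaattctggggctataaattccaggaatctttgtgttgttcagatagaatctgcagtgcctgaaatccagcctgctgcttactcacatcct

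A broader list of cancer-testis and germline genes, normally limited to germ cells, held 42 genes, of which 22 were tested. In K18, 11 were higher and 2 lower than in ascorbate-treated K01, and 9 were not called. The median log2 was 0.58, beside -0.00 over all tested genes, and the called share was 59.1%, beside 15.6%. Members such as TUBA3C and ACTL8 passed the filter only through K18, where they are high. They could only be counted higher, so the split and the median are not read as a result about the list. MAGEA1 stood at 67.9 and 64.7 FPKM in K18 and 8.65 and 16.5 with ascorbate (log2 2.37, SE 0.24). AURKC, the meiotic Aurora kinase, stood at 38.1 and 39.8 against 3.08 and 1.24 (log2 3.72, SE 0.27). PRAME, an antigen of germ cells and leukaemias, went the other way at 764 and 753 against 971 and 943 (log2 -0.33, SE 0.04, adjusted p = 0.000547), as did CTAG2. MAGEB1 took an intermediate place under ascorbate, with 26.0 and 25.4 FPKM in K18, 6.55 and 7.07 in K01 DMSO and 13.2 and 12.1 with ascorbate. Between ascorbate and K01 DMSO 2 genes of the list were called higher, and 0 when only the 4 libraries of that step were fitted. Leaving out a library left 9 to 11 of the list higher. The SSX and MAGE families have near-identical members, so single genes in them are uncertain.

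Globin transcripts were lower in K18. Of 9 tested globin and globin chaperone genes, 7 were lower, 0 higher and 2 not called, with a median log2 of -0.70. HBE1, the embryonic beta-type chain that K562 makes in quantity, stood at 1233 and 1255 FPKM in K18 and 5161 and 5275 with ascorbate (log2 -2.07, SE 0.04, adjusted p = 7.17e-09). Its K01 DMSO levels were 4472 and 4787, close to those with ascorbate. HBD stood at 1.72 and 3.19 FPKM against 13.2 and 9.56 (log2 -1.86, SE 0.22). The fetal gene HBG1 (log2 -0.74, SE 0.15) and the alpha-type gene HBA2 (log2 -1.02, SE 0.15) were lower too. HBG1 and HBG2, and HBA1 and HBA2, are near-identical pairs whose reads may be split arbitrarily. The embryonic alpha-type HBZ was lower by a smaller margin, at 787 and 737 against 1028 and 1077 FPKM (log2 -0.47, SE 0.12, adjusted p = 0.0276). Without a library 4 or 5 of the 9 were lower, 4 without K18 replicate 2 or ascorbate replicate 2. HBG1 was lost in 3 of the 4 fits (adjusted p up to 0.0715).

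Surface and skeleton genes of red cells were also lower in K18 in part. Of 27 tested, 14 were lower, 1 higher and 12 not called (median log2 -0.36). The Rh complex was the most affected: RHAG stood at 113 and 103 FPKM in K18 and 280 and 282 with ascorbate (log2 -1.37, SE 0.06, adjusted p = 2.38e-06). RHD (log2 -1.54, SE 0.19) and RHCE (log2 -1.47, SE 0.21), near-identical copies whose reads may be shared, were also lower. XK, which carries the Kx antigen, stood at 4.14 and 3.51 against 9.44 and 10.1 (log2 -1.16, SE 0.13). ICAM4 was the 1 higher member, named after its values were seen, at 62.9 and 66.4 against 42.8 and 43.9 (log2 0.57, adjusted p = 0.0193), and was lost without any of the 4 libraries. The count of lower members was 9 without K18 replicate 1 or without either ascorbate library and 6 without K18 replicate 2.

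Regulators of the lineage split. Of 16 erythroid transcription factors, 2 were higher and 2 lower, a called share of 25.0%. GATA2, which precedes GATA1 in the progenitor state, stood at 79.3 and 85.1 FPKM in K18 against 53.5 and 50.5 (log2 0.65, SE 0.08, adjusted p = 0.000724). GFI1B, a repressor needed for red cell and platelet maturation, stood at 34.4 and 32.9 against 59.8 and 60.2 (log2 -0.82, SE 0.09), with K01 DMSO between at 43.6 and 41.8. NFE2, an activator of globin and platelet genes, was lower (log2 -0.59, SE 0.07). LYL1 was higher (log2 0.41, SE 0.08, adjusted p = 0.00933), but was lost without either of 2 of the 4 libraries (adjusted p up to 0.0683). GATA1 itself was not called (log2 -0.06, SE 0.09). In heme synthesis 2 of 12 enzymes and carriers were lower, FECH (log2 -0.56) and SLC25A38 (log2 -0.44), 0 were higher, and 0 to 1 stayed called when a library was left out. The called share of heme genes, 16.7%, was near the 15.6% of all tested genes.

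**Figure D3:**
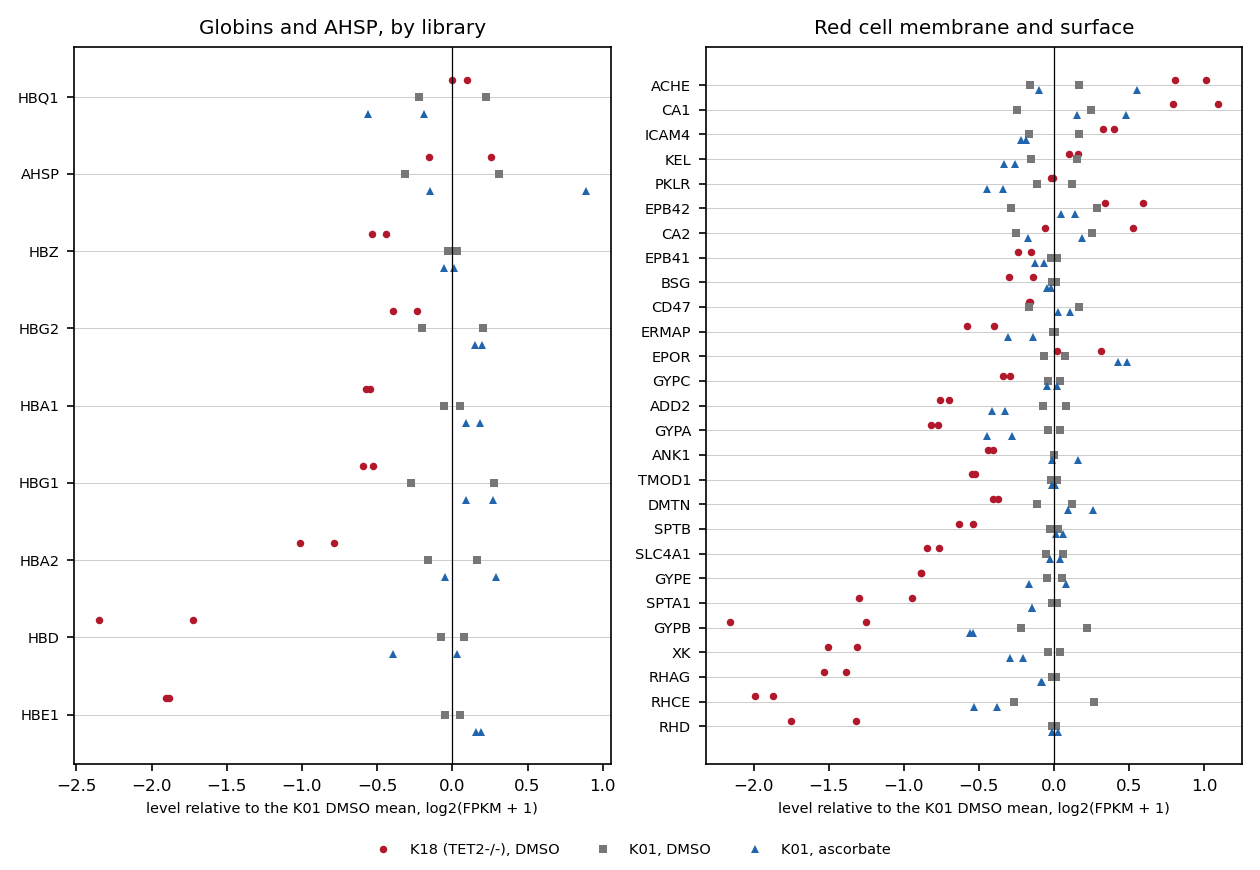
Levels of the tested globin genes and AHSP (left) and of red cell membrane and surface genes (right), log2(FPKM + 1) relative to the mean of the 2 K01 DMSO libraries, with circles for K18, squares for K01 DMSO and triangles for K01 with ascorbate. The K18 circles of HBE1, HBD and the Rh genes lie 1 or more units below the squares while most triangles lie near them. ACHE and CA1 lie on the other side, but neither was called higher in K18 than with ascorbate.

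Some genes of other blood lineages were higher in K18. In bulk RNA, a change in the number of cells of a type and a change in RNA per cell cannot be told apart. Among 25 myelomonocytic genes 14 were tested, 5 were higher and 0 lower, a called share of 35.7% beside 15.6% over all tested genes. Members at or near 0 with ascorbate, such as EPX and HDC, could only be counted higher. The split is therefore not read as a result about the list. PRG2, the major basic protein of eosinophil granules, stood at 77.4 and 79.9 FPKM in K18 against 4.16 and 2.65 with ascorbate (log2 4.20, SE 0.22, adjusted p = 8.03e-06). EPX, the eosinophil peroxidase, stood at 7.85 and 7.76 and was listed at 0 in both ascorbate libraries. HDC, which makes histamine, stood at 4.22 and 3.998 against 0.220 and 0. CD14 and CSF1R, which define monocytes, were listed at 0 in both K18 libraries. ITGAM was called at 0.945 and 1.04 against 0.0888 and 0.0317, but was lost without any of the 4 libraries (adjusted p up to 0.166). Without a library 4 to 6 of the list were higher. The list summed to 190 and 207 FPKM in K18 and 94.4 and 99.6 with ascorbate.

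Platelet genes did not move together. Of 8 tested of 18 listed, 2 were higher and 4 lower, and 0 were higher without K18 replicate 1. ITGA2B, the platelet integrin alpha chain, stood at 10.3 and 8.73 FPKM in K18 against 2.23 and 4.36 (log2 1.33, SE 0.24, adjusted p = 0.00639), and was lost in 1 of 4 leave-one-out fits (adjusted p = 0.0583). MEIS1, at 1.65 and 0.684 against 6.18 and 5.99 (log2 -1.75), and the platelet tubulin TUBB1, at 7.74 and 6.90 against 20.1 and 16.0 (log2 -1.19), were lower. GP1BB was lower (log2 -1.80, SE 0.19), but it overlaps a read-through with SEPT5. KIT was called in the stem and progenitor list, the only called gene of 4 tested, and CD34 was listed at 0. Epithelial keratins diverged, KRT19 at 125 and 126 against 78.4 and 64.2 (log2 0.82, SE 0.09) and KRT8 at 114 and 118 against 222 and 197 (log2 -0.85, SE 0.06), while EPCAM was lower (log2 -1.02, SE 0.10).

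The cholesterol synthesis and uptake genes, which the SREBP2 factor switches on when membrane sterol is low, formed a graded pattern over the 3 groups. Of 28 tested, 17 were lower in K18 than in ascorbate-treated K01, 1 was higher and 10 were not called, with a median log2 of -0.52. IDI1, an enzyme of the isoprenoid branch, stood at 41.2 and 42.7 FPKM in K18, 70.5 and 67.8 in K01 DMSO and 87.6 and 88.7 with ascorbate (log2 -1.05, SE 0.11, adjusted p = 0.000273). STARD4, a sterol carrier, stood at 7.43 and 9.77, then 14.6 and 15.3, then 18.4 and 19.3 (log2 -1.06, SE 0.14). ACAT2, which condenses acetyl-CoA, stood at 87.9 and 80.02, then 126 and 140, then 155 and 157 (log2 -0.89, SE 0.07, adjusted p = 9.45e-05).

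In 16 of the 28 cholesterol genes both K18 libraries lay below both K01 DMSO libraries and these below both ascorbate libraries. Over all tested genes 4.76% had that order. The K01 DMSO libraries enter both steps of it. Step by step, K18 against K01 DMSO gave 10 lower and 1 higher, and ascorbate against K01 DMSO gave 1 higher, HMGCS1, and 0 lower. HMGCS1, which makes the precursor of mevalonate, stood at 51.1 and 46.0 FPKM in K18, 49.2 and 48.9 in K01 DMSO and 76.6 and 73.8 with ascorbate (ascorbate step log2 0.61, SE 0.08, adjusted p = 0.0176), and that step was lost without any single library (adjusted p 0.109 to 0.156). Without a library 14 to 18 of the 28 were lower in K18 than with ascorbate. For K18 against K01 DMSO it was 4 to 8.

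**Figure D4:**
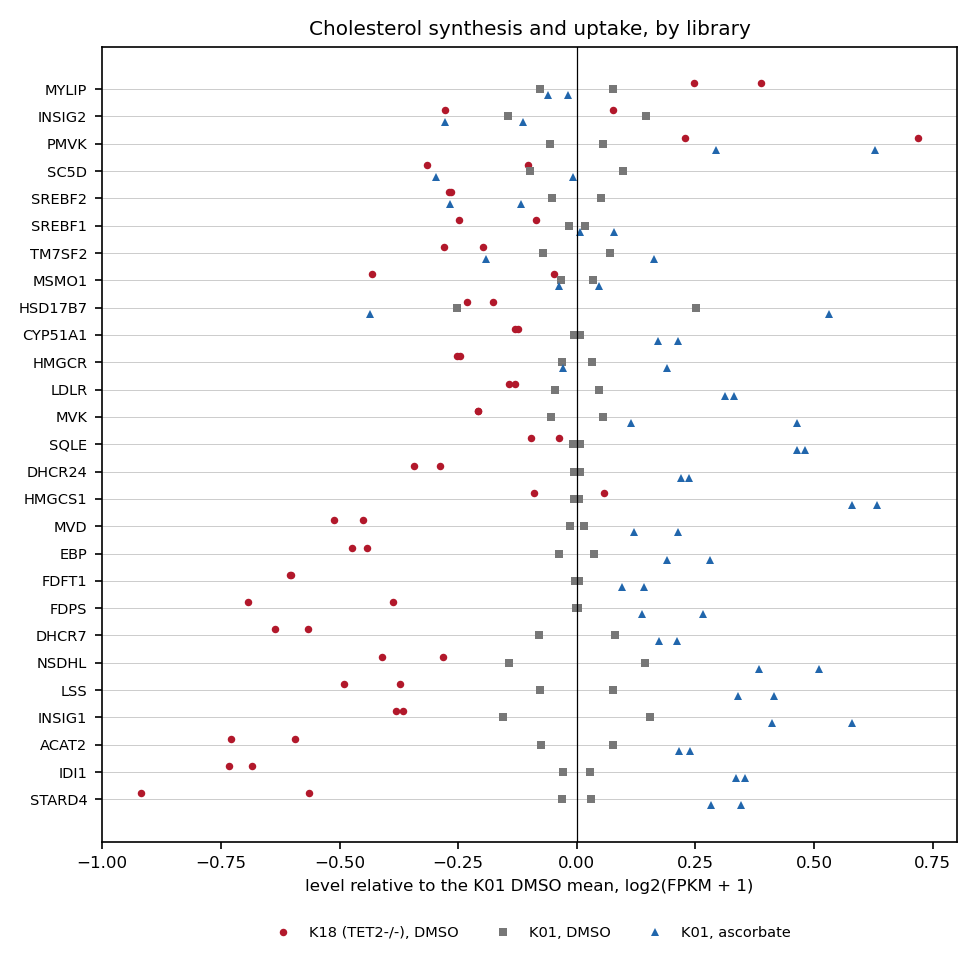
Levels of 27 of the 28 tested cholesterol synthesis and uptake genes, log2(FPKM + 1) relative to the mean of the 2 K01 DMSO libraries, with circles for K18, squares for K01 DMSO and triangles for K01 with ascorbate. Most circles lie left of the squares and most triangles right of them.

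Fatty acid synthesis followed in part, with 6 of 14 lower, 1 higher and 7 not called (median log2 -0.28). ACLY, which makes cytosolic acetyl-CoA, stood at 75.9 and 71.8 FPKM in K18, 105 and 99.1 in K01 DMSO and 111 and 109 with ascorbate (log2 -0.57, SE 0.06, adjusted p = 0.000406). FADS2, a desaturase, was lower (log2 -0.67, SE 0.14), but lost its call in 2 of 4 leave-one-out fits (adjusted p up to 0.0897). ACSS2 (log2 -0.60, SE 0.12) was lost in all 4 (adjusted p up to 0.0789). ACACB, which sets the rate of fatty acid oxidation, was the higher member at 2.90 and 2.94 against 0.238 and 0.509 (log2 1.52, SE 0.23). The lower count without a library was 3 to 5, with 3 without K18 replicate 1 or ascorbate replicate 1.

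EGR1, an immediate early transcription factor induced by growth signals, stood lowest in K18 and highest with ascorbate. It stood at 10.6 and 8.88 FPKM in K18, 40.9 and 38.3 in K01 DMSO and 72.0 and 73.8 with ascorbate (log2 -2.79, SE 0.09, adjusted p = 2.47e-07). The K18 step against K01 DMSO was log2 -1.92 (adjusted p = 4.05e-06) and the ascorbate step log2 0.87 (adjusted p = 0.00658). The ascorbate step lost its call without each of the 4 libraries (adjusted p 0.0601 to 0.0826) with log2 from 0.82 to 0.91. In K01 with the TET inhibitor TETi76, not part of the comparison, EGR1 stood at 67.9 and 64.6, and with TETi76 and ascorbate at 88.8 and 84.6. These values lay above those of K01 DMSO, and the cause was not tested.

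TMEM158, a membrane protein induced by RAS signalling, had the same order at 13.8 and 16.2, 28.2 and 26.4, and 49.6 and 49.1 FPKM (log2 -1.65, SE 0.13, adjusted p = 6.93e-05). Its ascorbate step (log2 0.83, adjusted p = 0.0284) was lost without any library (adjusted p 0.15 to 0.21). Of 21 tested immediate early genes, 6 were lower in K18, 1 higher and 14 not called, with a median log2 of -0.18. FOS, the partner of JUN, stood at 1.13 and 1.15 FPKM in K18, 2.92 and 2.79 in K01 DMSO and 3.30 and 4.19 with ascorbate (log2 -1.14, SE 0.16). BTG2, an antiproliferative gene, stood at 4.69 and 5.30 against 10.4 and 11.5 (log2 -1.0001, SE 0.12). IER3 was higher (log2 0.72, SE 0.19, adjusted p = 0.0304), and was lost in 2 of 4 leave-one-out fits (adjusted p up to 0.196).

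The integrated stress response showed a different arrangement, with K01 DMSO standing apart from both ends. In this pathway the factor ATF4 raises genes of amino acid supply when translation initiation is restrained. Of 28 tested targets, 7 were higher and 3 lower in K18 than in ascorbate-treated K01, and 18 were not called (median log2 0.22). Against K01 DMSO, K18 had 16 lower and 0 higher (median -0.42), and ascorbate had 10 lower and 0 higher (median -0.54). Both of these use the same K01 DMSO libraries, so their likeness is not evidence by itself. The 16 became 9 to 11 when a library was left out. The 10 became 0 to 2, and 0 to 12 under the other settings, with 0 when only 4 libraries were fitted.

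PSAT1, an enzyme of serine synthesis, stood at 87.3 and 76.8 FPKM in K18, 155 and 156 in K01 DMSO and 81.8 and 75.4 with ascorbate. The ends were not called apart (log2 0.06, 95% interval -0.14 to 0.26), while K18 lay below K01 DMSO (log2 -0.92, SE 0.09, adjusted p = 0.000211) and so did ascorbate (log2 -0.98, SE 0.09, adjusted p = 0.0046). The ascorbate step of PSAT1 held in 1 of 4 leave-one-out fits (adjusted p up to 0.0601). ASNS, the asparagine synthetase, stood at 157 and 149, 183 and 191, and 99.8 and 111 FPKM, an order with K18 between (log2 0.54, SE 0.07, adjusted p = 0.0012). With TETi76, PSAT1 stood at 19.5 and 20.9, and with TETi76 and ascorbate at 25.7 and 23.3.

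ATF5, an ATF4 target that is itself a stress transcription factor, was higher in K18, at 119 and 129 FPKM against 50.3 and 52.2 with ascorbate (log2 1.26, SE 0.16, adjusted p = 0.00106). Its K01 DMSO levels were 112 and 92.9, so K18 did not differ detectably from them (log2 0.28, adjusted p = 0.297). CTH, which makes cysteine from cystathionine, stood at 23.3 and 24.7, 27.4 and 25.8, and 11.3 and 13.7 (log2 0.89, SE 0.14, adjusted p = 0.00315). GDF15, a secreted stress factor, went the other way at 65.9 and 65.8 FPKM in K18, 183 and 156 in K01 DMSO and 151 and 150 with ascorbate (log2 -1.18, SE 0.11, adjusted p = 0.000167). ATF4 itself was lower in K18, at 298 and 275 against 341 and 350 (log2 -0.27, SE 0.05, adjusted p = 0.0105). NUPR1 was called higher (log2 1.54, SE 0.34), but was lost without each library (adjusted p up to 0.116). The number higher was 4 without K18 replicate 1 and 3 without K18 replicate 2, ascorbate replicate 1 or ascorbate replicate 2, and the number lower was 1 or 2. Under quantile normalization 11 were higher.

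**Figure D5:**
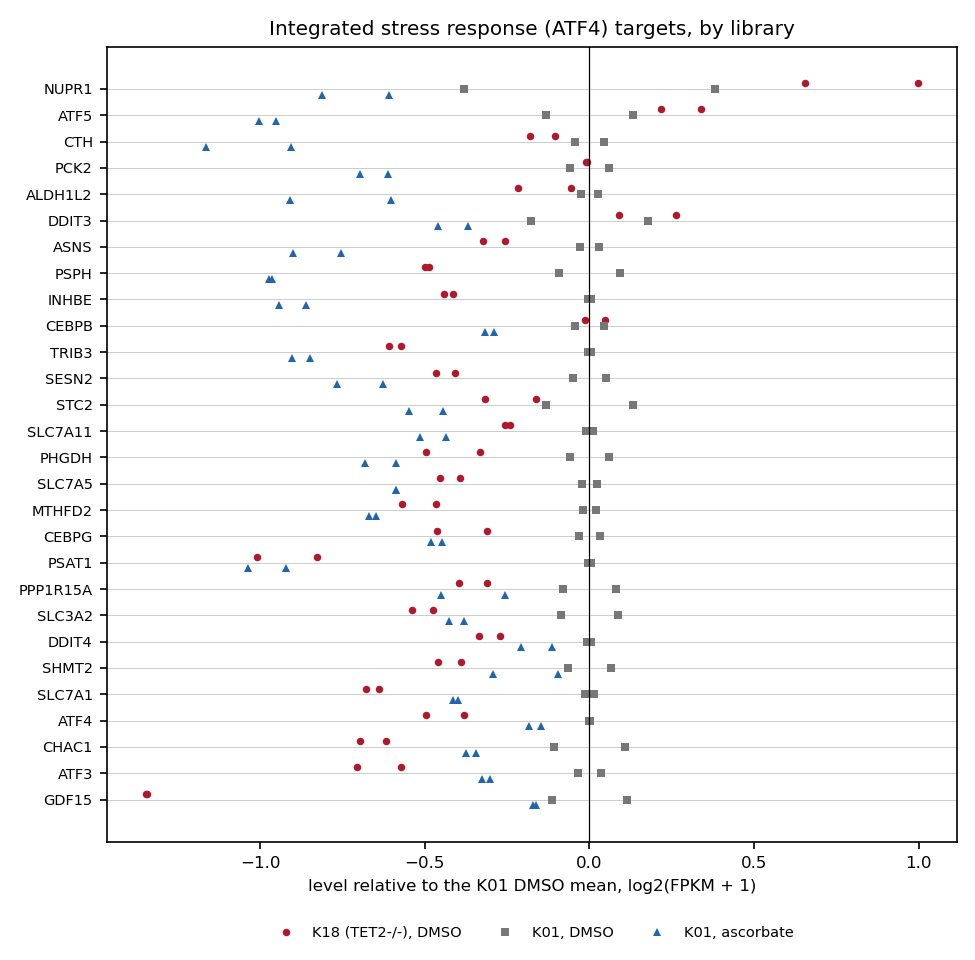
Levels of the 28 tested integrated stress response targets, log2(FPKM + 1) relative to the mean of the 2 K01 DMSO libraries, with circles for K18, squares for K01 DMSO and triangles for K01 with ascorbate. Both other groups lie mostly left of the squares, and the circles lie right of the triangles in the upper rows and left of them in the lowest rows, where GDF15 is the extreme.

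Promoters of ASNS and SLC3A2 are shown because both hold the motif TGATGNAA, which resembles the composite element that ATF4 binds with a C/EBP partner. SLC3A2, the heavy chain of amino acid exchangers, stood at 118 and 124 FPKM in K18, 162 and 183 in K01 DMSO and 132 and 128 with ascorbate (ends log2 -0.10, SE 0.07). The 39 genes lower with ascorbate than in K01 DMSO include 32 with a RefSeq promoter, and 6 of these, AARS, ASNS, CARS, NARS, RSL24D1 and SLC3A2, held the motif on either strand. Of all 27305 RefSeq promoters 3.7% held it. The set of 39 falls to 0 to 5 genes when a library is left out, so its motif count is given as a description only and is not compared. AARS, CARS, NARS and RSL24D1 were chosen after their values were seen. A match is a description, not a binding site. The motif is in capitals, in ASNS (chr7:97872359-97872658, minus strand) on the strand shown and in SLC3A2 (chr11:62881449-62881748, plus strand) on the opposite strand.
ASNS: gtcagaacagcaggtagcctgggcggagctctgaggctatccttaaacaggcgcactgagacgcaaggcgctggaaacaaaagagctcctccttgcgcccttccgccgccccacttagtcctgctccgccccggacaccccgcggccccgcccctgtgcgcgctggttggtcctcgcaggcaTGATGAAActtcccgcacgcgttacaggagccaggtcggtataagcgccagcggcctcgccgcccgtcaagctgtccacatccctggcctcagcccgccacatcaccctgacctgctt
SLC3A2: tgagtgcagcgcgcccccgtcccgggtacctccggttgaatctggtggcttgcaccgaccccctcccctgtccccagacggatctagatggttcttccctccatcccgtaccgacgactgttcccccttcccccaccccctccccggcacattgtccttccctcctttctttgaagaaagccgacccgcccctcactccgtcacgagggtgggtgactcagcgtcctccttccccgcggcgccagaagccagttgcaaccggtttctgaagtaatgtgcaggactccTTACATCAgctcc

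Serine and folate one-carbon genes, which feed nucleotide synthesis, were split too. This list shares members with the stress response list, PSPH among them, so it is not an independent repeat of that pattern. The amino acid transporter list overlaps the stress response list as well. Of 18 tested, 2 were higher and 3 lower in K18 than with ascorbate. Against K01 DMSO 10 were lower in K18 (6 or 7 without a library) and 3 were lower with ascorbate (0 or 1). MTHFD1L, a mitochondrial folate enzyme, stood at 22.1 and 24.0 FPKM in K18, 57.7 and 60.5 in K01 DMSO and 44.0 and 50.4 with ascorbate (log2 -1.002, SE 0.10, adjusted p = 0.000243). MTHFD1, its cytosolic relative, stood at 50.1 and 50.8 against 77.9 and 87.4 (log2 -0.70, SE 0.08). PSPH (log2 0.48, SE 0.13) and MTR (log2 0.43, SE 0.13) were called higher and were lost without each of the libraries (adjusted p up to 0.149 and 0.212). Among 16 amino acid transporters, 1 was lower, the glutamine carrier SLC1A5 (log2 -0.27, SE 0.06, adjusted p = 0.0159), held in 1 of 4 leave-one-out fits, and 0 were higher. The called share of transporters was 6.2%, below the 15.6% of all tested genes.

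Of 22 tested genes of DNA methylation and demethylation, 2 were higher, 4 lower and 16 not called (median log2 -0.01). The called share was 27.3%, beside 15.6% over all tested genes. Without a library 0 or 1 were higher and 1 or 2 lower, in each of the 4 fits. DNMT3A, a de novo methyltransferase, stood at 4.27 and 4.73 FPKM in K18 and 8.84 and 7.75 with ascorbate (log2 -0.76, SE 0.16, adjusted p = 0.0122), and stayed called in 1 of 4 leave-one-out fits (adjusted p up to 0.0832). DNMT3B was called by a narrow margin (log2 -0.28, SE 0.08, adjusted p = 0.0458) and was lost without each library. DNMT1, the maintenance methyltransferase, was not called (log2 -0.22, SE 0.06, adjusted p = 0.0511). GADD45A, a stress gene linked to demethylation, stood at 48.8 and 47.9 against 86.2 and 95.02 (log2 -0.89, SE 0.13, adjusted p = 0.00229). IDH1, which makes 2-oxoglutarate, stood at 80.6 and 69.7 in K18, 79.1 and 82.7 in K01 DMSO and 57.5 and 58.6 with ascorbate (log2 0.36, SE 0.09), and APOBEC3B was higher (log2 0.59, SE 0.14). The calls of IDH1 and APOBEC3B were lost in 3 and 4 of 4 leave-one-out fits (adjusted p up to 0.146 and 0.141).

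Of the other 2-oxoglutarate dioxygenases, 32 were tested, 3 were lower and 0 higher, a share of 9.4% beside 15.6% over all tested genes, and 1 or 2 were lower without a library. ASPH, an aspartate hydroxylase, stood at 9.07 and 8.81 FPKM in K18 and 15.9 and 16.1 with ascorbate (log2 -0.78, SE 0.13, adjusted p = 0.00507). JMJD6 (log2 -0.47, SE 0.11) and P3H1 (log2 -0.47, SE 0.14) were called and lost in 2 and 4 of 4 leave-one-out fits (adjusted p up to 0.136 and 0.216). Ascorbate uptake and recycling had 2 higher and 4 lower of 12. Without a library 0 were higher in each of the 4 fits, and 2 were lower in all but the fit without ascorbate replicate 1, which had 3. The glucose and dehydroascorbate carriers SLC2A1, at 35.2 and 35.9 against 50.3 and 51.8 FPKM (log2 -0.51, SE 0.08), and SLC2A3, at 23.2 and 25.1 against 42.2 and 40.4 (log2 -0.75, SE 0.10), were lower. Both stood as high in K01 DMSO as with ascorbate. GLRX and CYBRD1 were called higher and lost without each library (adjusted p up to 0.154 and 0.196).

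Antioxidant genes were split in K18. Of 18 peroxide and thioredoxin genes, 1 was higher and 5 lower (median log2 -0.03). These counts depended on the scaling, with 3 higher and 3 lower under quantile normalization and also with an equal sum. The lower count was 3 without any one of the 4 libraries. The higher member, SESN3, lost its call in all 4 of these fits (adjusted p up to 0.113), as did PRDX4 on the lower side (adjusted p up to 0.194). Catalase (CAT) stood at 47.2 and 44.8 FPKM in K18 against 74.0 and 77.1 (log2 -0.70, SE 0.12, adjusted p = 0.00378), and PRDX6 at 228 and 223 against 340 and 336 (log2 -0.58, SE 0.05, adjusted p = 7.9e-05). Among 20 NRF2 targets, 3 were higher and 7 lower. The 3 became 1 without K18 replicate 1 or ascorbate replicate 1, 0 without K18 replicate 2 and 2 without ascorbate replicate 2, and the lower count was 6 in each of these fits. The aldo-keto reductases AKR1C1 (log2 -0.90, SE 0.09) and AKR1C2 (log2 -1.86, SE 0.18) were lower, and share near-identical sequence. GCLC, which limits glutathione synthesis, was higher at 7.13 and 8.12 against 4.51 and 3.63 (log2 0.77, SE 0.13, adjusted p = 0.0053), and lost its call in 1 of 4 leave-one-out fits (adjusted p = 0.0532).

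Of 19 iron genes 6 were higher and 1 lower, with a median log2 of 0.02. The called share was 36.8%, beside 15.6% over all tested genes. Ferroportin SLC40A1, the iron exporter, stood at 16.9 and 18.2 FPKM in K18 against 10.1 and 9.35 (log2 0.79, SE 0.15, adjusted p = 0.00798), and was lost in 2 of 4 leave-one-out fits (adjusted p up to 0.0649). NCOA4, which delivers ferritin for breakdown, stood at 79.2 and 82.4 against 125 and 121 (log2 -0.61, SE 0.06, adjusted p = 0.000243). MFI2, a transferrin-like surface protein, was higher (log2 1.66, SE 0.30, adjusted p = 0.00679), and lost its call without K18 replicate 1 (adjusted p = 0.0551). MT2A, a metallothionein that binds zinc and copper, stood at 56.0 and 39.1 against 10.6 and 7.97 (log2 2.23, SE 0.17, adjusted p = 7.55e-05). It was the 1 called of 3 tested metallothioneins. Without a library 2 or 3 iron genes were higher, with 2 without either K18 library.

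Of 31 mitosis genes, 8 were lower and 1 higher, and 5 to 7 were lower under the other scalings. CDK1, the mitotic kinase, stood at 79.2 and 75.4 FPKM in K18 against 119 and 118 with ascorbate and 124 and 125 in K01 DMSO (log2 -0.61, SE 0.06, adjusted p = 0.000213). HMMR was lower (log2 -0.54, SE 0.07). Both stayed called in all 10 other settings and without each library. The counts of the next 3 lists depended on the scaling too. S phase genes had 6 lower of 34 and 0 higher, but 0 lower and 2 higher under quantile normalization and 2 lower and 1 higher with an equal sum. Their called share, 17.6%, was near the 15.6% of all tested genes. Ribosome biogenesis had 7 lower of 27 and 0 higher, and 2 lower under quantile normalization or an equal sum. Nuclear oxidative phosphorylation had 7 lower and 1 higher of 30, but 2 lower and 2 higher under quantile normalization. Without a library the lower counts ranged from 3 to 5 for mitosis, 0 to 2 for S phase, 1 to 2 for ribosome biogenesis and 2 to 4 for oxidative phosphorylation.

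Of 14 PIM kinase and STAT5 target genes, 7 were lower and 0 higher (median log2 -0.27). CISH, a feedback inhibitor induced by STAT5, stood at 22.03 and 21.3 FPKM in K18, 43.3 and 48.6 in K01 DMSO and 43.6 and 43.7 with ascorbate (log2 -0.98, SE 0.10, adjusted p = 0.000237). IGF1, a growth factor, stood at 0.860 in both K18 libraries, 6.002 and 9.61 in K01 DMSO and 3.59 and 2.72 with ascorbate (log2 -1.15, SE 0.22, adjusted p = 0.00779), and was lost in 1 of 4 leave-one-out fits (adjusted p = 0.0535). CCND2, a G1 cyclin, was lower (log2 -0.61, SE 0.11). The lower count was 3 or 4 without a library, lowest without ascorbate replicate 1. Of 15 BCL2 family genes 5 were lower and 0 higher, a called share of 33.3%. BAX, at 88.6 and 71.2 against 112 and 113 (log2 -0.50, SE 0.10), was among the lower. The 5 became 4 without K18 replicate 1, 3 without ascorbate replicate 1 and 2 without K18 replicate 2 or ascorbate replicate 2. BCL2, BNIP3 and PMAIP1 each held in 1 of these 4 fits (adjusted p up to 0.118). Of 17 p53 targets and cell-cycle inhibitors, 4 were lower and 1, the death receptor TNFRSF10B (log2 0.73, SE 0.13), was higher, with that call lost in 1 of 4 leave-one-out fits (adjusted p = 0.0525).

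Among 32 hypoxia and glycolysis genes 3 were higher and 7 lower (3 to 5 lower without a library, and 4 under quantile normalization). The 3 higher became 1 without K18 replicate 1 or ascorbate replicate 2, 0 without K18 replicate 2, 2 without ascorbate replicate 1 and 1 without trend and robust fitting. EPAS1, the oxygen-sensitive factor HIF2A, stood at 4.89 and 4.90 FPKM in K18 against 2.19 and 2.52 (log2 0.81, SE 0.15, adjusted p = 0.00776), and was lost in 1 of 4 leave-one-out fits (adjusted p = 0.0542). Of 18 endoplasmic reticulum chaperones 2 were lower and 0 higher, both by a log2 of -0.21, CALR and HSP90B1, and each held in 1 of 4 leave-one-out fits. The called share of these chaperones was 11.1%, below the 15.6% of all tested genes. Of 18 heat shock genes 1 was higher and 4 lower, a called share of 27.8%. HSPB1, a small heat shock protein, stood at 351 and 363 against 237 and 258 FPKM (log2 0.53, SE 0.07, adjusted p = 0.00159). HSPA4 stood at 92.2 and 80.9 against 134 and 132 (log2 -0.62, SE 0.08, adjusted p = 0.000855). HSPA1A was not called between the ends (log2 0.19, 95% interval -0.07 to 0.45), at 30.6 and 33.5 in K18, 18.3 and 14.1 in K01 DMSO and 29.2 and 26.8 with ascorbate, and it shares near-identical sequence with HSPA1B.

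Of the called genes of the ascorbate step that are in no list, 3 more are described here. ACSM3, a mitochondrial acyl-CoA synthetase, stood at 188 and 169 FPKM in K18, 113 and 112 in K01 DMSO and 211 and 192 with ascorbate. The ends were not called apart (log2 -0.18, 95% interval -0.38 to 0.03), and its ascorbate step (log2 0.83, adjusted p = 0.00788) was lost without each of the 4 libraries (adjusted p 0.0585 to 0.0921). COA5, a cytochrome oxidase assembly factor, stood at 16.7 and 13.5 in K18, 14.6 and 13.9 in K01 DMSO and 6.87 and 7.63 with ascorbate (log2 0.96, SE 0.12, adjusted p = 0.00108). Its ascorbate step (log2 -0.89, SE 0.12, adjusted p = 0.0232) was lost without each library (adjusted p 0.109 to 0.178). ARHGAP25, a GTPase-activating protein of blood cells, stood at 11.2 and 9.13 in K18, 4.63 and 5.05 in K01 DMSO and 12.97 and 8.86 with ascorbate, with no call between the ends (log2 -0.08, 95% interval -0.47 to 0.31). Its ascorbate step (log2 1.01, SE 0.17, adjusted p = 0.0475) was lost without each library too (adjusted p 0.0585 to 0.222).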

How the data were processed

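The deposited K562 table gave FPKM per gene symbol, made by the authors. Per the submitters' processing notes, hg19, STAR, edgeR 3.24.3 and limma 3.38.3 were used, without stating for which step. The quantifier is not given in the sources used here, and FPKM cannot be told apart from RPKM. The 10 single-sample columns equalled the table. Of 26171 rows, 26 number-named and 2272 short RNA rows were left out. From the rest, 12535 genes with FPKM of at least 1 in at least 2 of 10 K562 libraries were tested on log2(FPKM + 1) with limma 3.58.1 (R 4.3.3; trend, robust; 5 groups, 5 residual degrees of freedom), two-sided, Benjamini-Hochberg. The script was tested on simulated data. Depth was estimated from the step of 1 read in low values of genes with 1 transcript and depends on the annotation's lengths. The SIGM5 libraries are not used here.

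The members, the 41 gene lists and the tests were chosen with earlier results of these data known. Named were the 12 called genes per direction with the largest difference, provided the higher mean reached 10 FPKM and the libraries did not overlap, then from every list at most 4 called genes (or its 2 most abundant), TET and DNMT genes, and up to 6 called genes per direction of the ascorbate step. Other list members named were chosen after their values were seen: HBZ, ATF4, ASNS, SLC3A2, HMGCS1, PRAME, MAGEA1, ICAM4, GATA1, ALAS2 and the lineage markers.

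RefSeq promoters were matched for 9815 of 12535 tested genes (78.3%, below the 80% needed), so a comparison of CpG or GC content between gene sets is void and none is given. Alternatives were other pseudocounts, filters, scalings and fits, a replicate block, and leaving out each library. Values of 2 genes that the naming rule selected are not reported here.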

Additional observations from a re-analysis of the deposited data

How the results depend on the processing

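Between K18 and ascorbate-treated K01, calls ranged from 1554 to 2001 over the 10 alternatives that keep all libraries of the comparison, 1815 with the replicate number as a block. Leaving out a library gave 795 to 1067 calls, 346 to 514 higher and 449 to 555 lower. An equal sum over kept genes gave 642 lower. For K18 against K01 DMSO, leaving out a library gave 783 to 966 calls, 350 to 451 higher and 433 to 524 lower. Ascorbate against K01 DMSO gave 0 calls, 0 higher and 0 lower in a fit of only its 4 libraries, and 7, 2 and 5 without trend and robust fitting. An FPKM filter of at least 5 gave 34 higher. Leaving out a library gave 0 to 6 calls, 0 to 3 higher and 0 to 5 lower. A group left with 1 library is assumed to vary like the others. The cause was not tested.

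Among named genes, the sign changed only for 3 that were not called. The log2 difference of TET3 was -0.038 under quantile normalization and -0.15 to 0.21 when a library was left out. For ARHGAP25 it was 0.0036 with an equal sum and -0.33 to 0.17 when a library was left out. For PSAT1 it was -0.032 to 0.15 when a library was left out. Of 151 named called genes, 92 stayed called without each of the 4 libraries and 24 in none of these fits.

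Deviations of same-numbered replicates were nearly uncorrelated (correlations -0.02 to 0.05). Low correlations cannot exclude a shared culture or batch, and the labels do not say what the replicate number stands for. With the replicate block, K18 against K01 DMSO and ascorbate against K01 DMSO gave 1741 and 42 calls. Depth limits genes near an FPKM of 1, and 2 libraries per group limit every test.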

Other observations

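Values of further gene groups are given here beside the 15.6% of all tested genes that were called. Among 15 interferon-stimulated genes 3 were higher and 1 lower, and 2 neighbouring antiviral membrane genes went opposite ways. IFITM2 stood at 283 and 251 FPKM in K18 against 87.4 and 117 (log2 1.39, SE 0.15, adjusted p = 0.000385), and IFITM3 at 84.7 and 102 against 231 and 241 (log2 -1.33, SE 0.09, adjusted p = 3.71e-05). These are close paralogs, so reads may be shared between them. Of 12 HLA and antigen presentation genes 2 were higher and 1 lower, and 1 was higher in 3 of 4 fits without a library. HLA-E stood at 35.0 and 38.2 against 19.5 and 18.9 (log2 0.90, SE 0.11), while B2M, the shared light chain, stood at 344 and 352 against 502 and 488 (log2 -0.51, SE 0.05).

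ID2, an inhibitor of basic helix-loop-helix factors, stood at 17.9 and 13.7 FPKM in K18 against 5.09 and 2.35 (log2 1.88, SE 0.32, adjusted p = 0.00439), within a list of 11 ID and SMAD feedback genes with 2 higher and 2 lower. Without a library 1 or 2 were higher and 0 or 1 lower, with 0 without K18 replicate 1 or ascorbate replicate 1. SPRED1, a RAS inhibitor, stood at 13.5 and 11.002 against 4.57 and 3.98 (log2 1.32, SE 0.15), 1 of 2 higher of 12 MAP kinase feedback genes, a share of 16.7%, near that of all genes. TNFAIP3, a brake on NF-kB, was higher (log2 0.92, SE 0.15), 1 of 2 higher of 14 NF-kB and TNF response genes, a share of 14.3%, near that of all genes. Tubulin isotypes and filaments had 4 higher and 8 lower of 24. The 8 became 3 without K18 replicate 1, 4 without ascorbate replicate 1 or without trend and robust fitting, and 5 without K18 replicate 2 or ascorbate replicate 2. TPM4 was higher (log2 0.64, SE 0.07). Replication-dependent histones, whose messages mostly lack a poly(A) tail, had 1 higher and 4 lower of 17 (2 lower without K18 replicate 2, and 3 without each of the other libraries), among them HIST1H1C at 895 and 935 against 1239 and 1162 (log2 -0.39, SE 0.06). The neuronal and secretory list had 1 higher and 2 lower of 7, SCG3 and SOX5.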
